A study of Chlamydomonas reinhardtii with 20 samples.

Results

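Among 17737 gene IDs of the green alga Chlamydomonas reinhardtii, 124 had transcripts whose levels were lower than in darkness after both a short and a long exposure to light. They were chosen from group means in ho1C1 and ho1C2, which are complemented lines of the heme oxygenase mutant hmox1. For each gene and line, the log2 ratio of the mean in light to the mean in darkness was taken after adding 1 to each mean. A gene was kept when this value was -1.5 or lower at 0.5 h and at 4 h in both lines. Values in the 12 libraries of ho1C1 and ho1C2 therefore chose these genes and are given as a description. The 8 libraries of hmox1 and of the wild type 4A+ played no part in the choice, and the tests below compare those libraries. The spread behind each test was estimated over all 20 libraries, those that chose the genes included.

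All 20 libraries came from cultures grown in darkness on acetate medium that held methanol, the solvent of the added bilin. The groups, with 2 libraries each, were hmox1 with 0.1 mM biliverdin IXα (BV) after 4 h of white light, hmox1 without BV after 4 h, 4A+ with 0.1 mM BV after 4 h, and 4A+ without BV after 4 h. The others were ho1C1 without BV and ho1C2 without BV, each in darkness, after 0.5 h and after 4 h of white light. Neither 4A+ nor hmox1 was analysed here in darkness or at 0.5 h, and neither complemented line with BV. Both complemented lines derive from hmox1, and the labels do not say how the gene was returned to them. Replicates are called biological in the labels, and nothing says whether they were separate cultures, so a p-value reflects only how these libraries vary, which may be technical.

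Bilins are open-chain tetrapyrroles. Heme oxygenase opens the ring of heme to give biliverdin, and in algae this is reduced further to other bilins, which serve plants and algae as chromophores and as signals from the chloroplast to the nucleus. A cell growing on acetate in darkness lives by respiration, and it can turn to photosynthesis when light arrives. How low and how fast the level of an mRNA drops depends on both its synthesis and its degradation. The gene table used here pairs no ID with a gene name or a product, so the genes are given by their IDs and no role is assigned to them. HMOX1 could not be checked in the mutant for the same reason.

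Levels are in RPKM, read numbers per length of gene and per size of library, so levels of different genes can be compared. Low values of a gene were whole multiples of a step, which gave relative depths between 0.614 in hmox1 without BV replicate 2 and 2.02 in ho1C1 at 4 h replicate 2. Absolute depth is unknown, so no counting interval is given. Libraries of a group correlated at 0.9945 to 0.9983 across genes. The largest spread was in hmox1 without BV, whose libraries differed by a median of 0.159 on the log2(RPKM + 1) scale in absolute terms, against 0.0677 to 0.0893 in the other groups. A lower level can mean fewer cells holding the transcript or less of it per cell, and the 2 cannot be told apart in these libraries.

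In darkness the 124 genes had a median level of 15.8 RPKM in ho1C1 and 16.1 in ho1C2, with a range of 2.43 to 844.5 in ho1C1. Not all were abundant, since 17 had a dark mean of 5 RPKM or less over both lines. After 0.5 h of light the median was 1.42 RPKM in ho1C1 and 1.36 in ho1C2, and after 4 h it was 1.90 and 2.34. The median log2 value against darkness was -2.38 and -2.39 at 0.5 h, and -2.27 and -2.10 at 4 h, in ho1C1 and ho1C2. The lowest was -6.04, in ho1C2 at 4 h. As a summed level the genes took 0.884 to 0.922% of the column total in the 4 dark libraries, 0.159 to 0.168% in the 4 libraries at 0.5 h and 0.103 to 0.1435% in the 4 libraries at 4 h. The light course after the first drop was not uniform. In both lines 43 genes were lower at 4 h than at 0.5 h, 71 were higher, and 10 differed in direction between the lines. At 2-fold or more on the log2(RPKM + 1) scale, 9 genes went on down and 14 came partly back in both lines.

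The threshold cuts a continuous range. Just inside it stood Cre12.g548200, with a largest value of -1.507, Cre16.g695700, also with -1.507, and Cre04.g212450, with -1.504. Just outside stood Cre10.g443050, with -1.499, Cre02.g087850, with -1.497, and g2904, with -1.495. The genes outside were not all minor transcripts, since g2904 had 986 and 948 RPKM in dark ho1C1. The count depends on the added constant and on scaling. It was 372 with 0.1 RPKM added and 44 with 5 RPKM added, and 79 when libraries were rescaled by median-ratio factors.

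**Figure D1:**
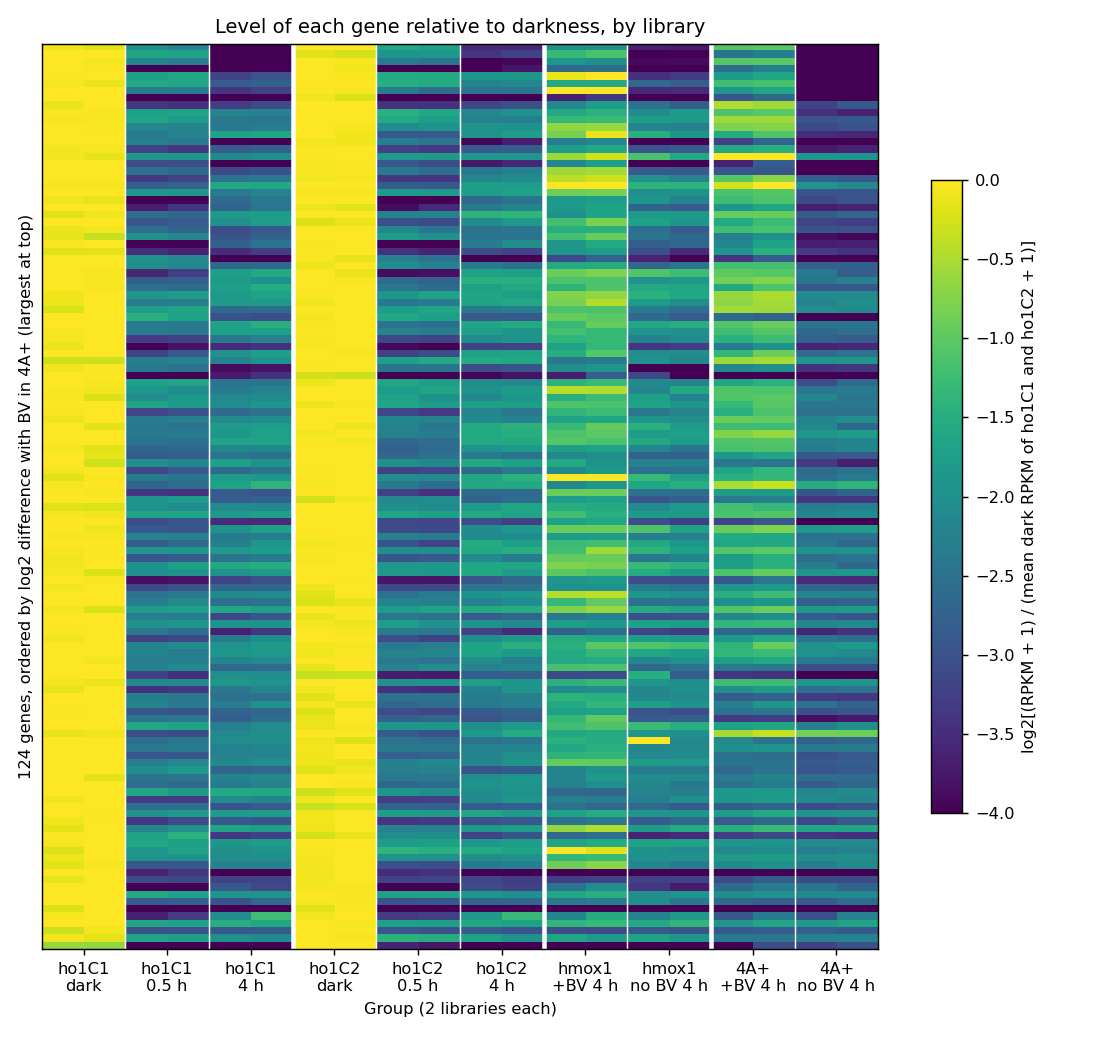
Level of each of the 124 genes (rows) in each of the 20 libraries (columns, 2 per group), as log2 of RPKM plus 1 over the dark mean of ho1C1 and ho1C2 plus 1, with rows ordered by the log2 difference with BV in 4A+. The 4 dark libraries are near 0 because they set the scale, the columns of 4A+ without BV are the darkest at 4 h, and the columns with BV in hmox1 and 4A+ are lighter than those without it.

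The most abundant of these transcripts in darkness was Cre01.g032650. It had 883 and 806 RPKM in dark ho1C1, 188 and 172 at 0.5 h, and 34.05 and 36.4 at 4 h. In ho1C2 it had 879 and 825 in darkness, 165 and 154 at 0.5 h, and 51.85 and 54.6 at 4 h. It thus went on down between the 2 exposures, and no libraries of different times overlapped. Cre08.g372200 and Cre07.g338450 had the same course. The means of Cre08.g372200 in ho1C1 were 448 ± 9.48 RPKM in darkness, 123 ± 1.68 at 0.5 h and 18.04 ± 0.035 at 4 h (SD, n = 2). Those of Cre07.g338450 were 245 ± 7.61, 62.25 ± 6.20 and 15.3 ± 0.212.

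Some other abundant members did not go on down in both lines. Cre03.g164600 had 167 and 175 RPKM in dark ho1C1, 8.06 and 8.63 at 0.5 h, and 24.5 and 29.9 at 4 h, so part of the level was back at 4 h. Cre17.g702900 had 711 and 651 RPKM in darkness, 113 and 116 at 0.5 h, and 167 and 167 at 4 h in ho1C1. It kept the highest level of the 124 after 4 h of light without BV in all 4 strains. Cre13.g603500 had 231 and 211 RPKM in dark ho1C1, 9.33 and 8.68 at 0.5 h, and 7.58 and 9.17 at 4 h, so its libraries of both exposures overlapped in that line. In ho1C2 it had 7.54 and 7.44 at 0.5 h and 10.7 and 14.67 at 4 h, with no overlap.

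**Figure D2:**
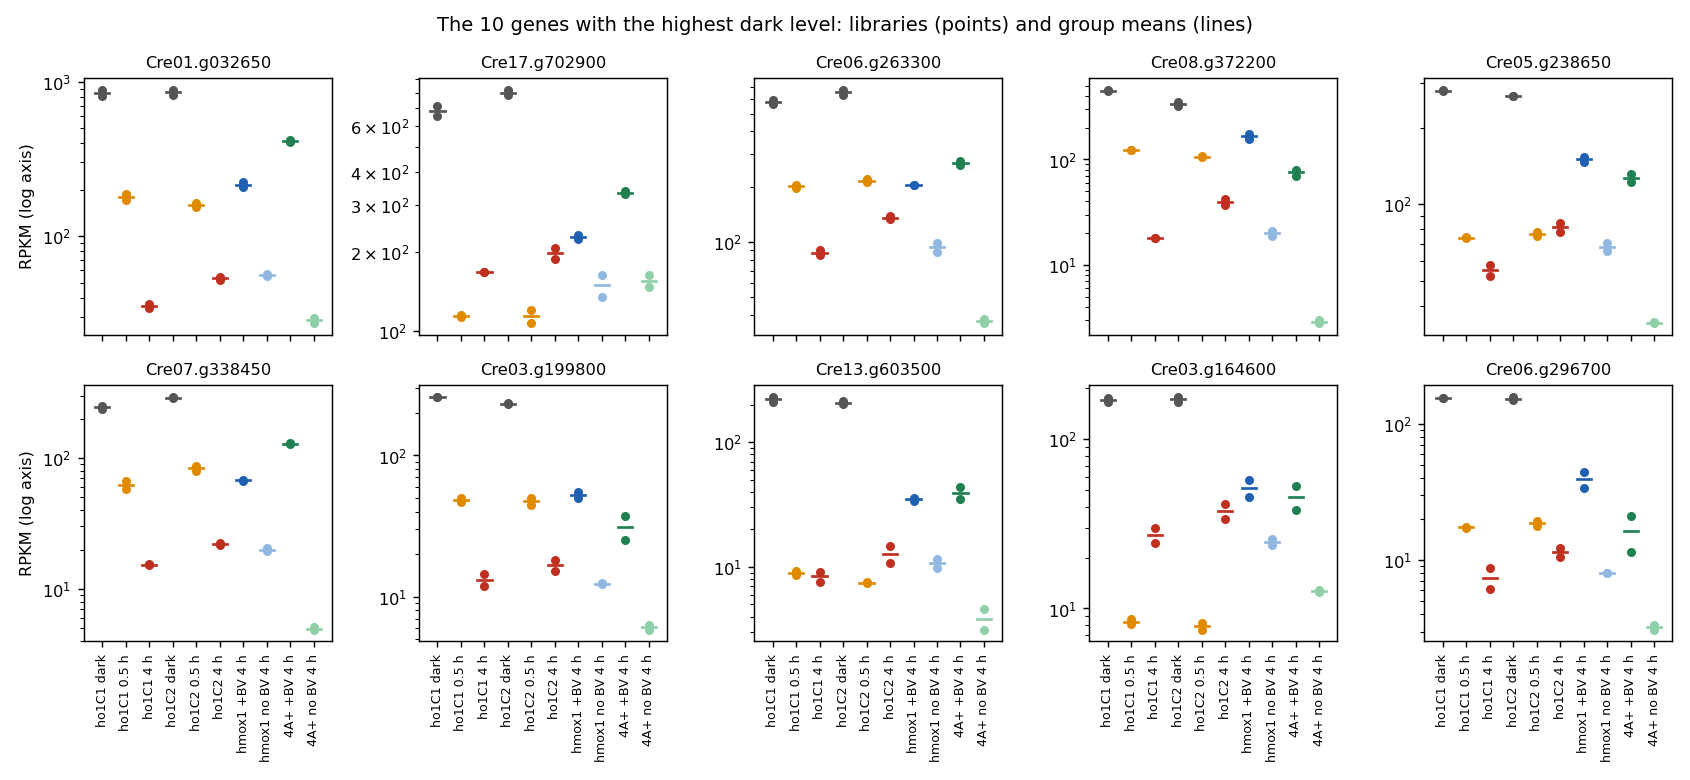
RPKM (log axis, a separate scale in each panel) of the 10 members with the highest dark level in all 10 groups, with points for libraries and lines for group means. In each panel the 4 dark libraries are the highest, and in 9 of the 10 panels 4A+ without BV is the lowest of the groups sampled at 4 h, Cre17.g702900 being the exception.

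After 4 h of light without BV the genes were also low in the strains that did not choose them. Their median level was 2.47 RPKM in hmox1 and 1.09 in 4A+, which is 14.5% and 6.71% of the dark level in the complemented lines, taken per gene. In ho1C1 and ho1C2 the same share at 4 h was 11.2% and 14.7%. With median-ratio factors the shares were 15.8% in hmox1, 9.26% in 4A+, 12.9% in ho1C1 and 16.5% in ho1C2. In hmox1 without BV 108 of the 124 stood below 25% of the dark level, and in 4A+ without BV 120 did. The dark level comes from other strains, so this shows where the genes stood and not how far they dropped in 4A+ or hmox1. Of the 4 strains at 4 h without BV, 4A+ had the lowest mean for 95 of the 124 genes, or for 77 with median-ratio factors. The same ranking was not made over all genes. For hmox1 against 4A+ without BV, the difference was positive for 105 of the 124 and for 10425 of the 13871 genes tested. In the deposited values, lower levels in 4A+ than in hmox1 were thus common to most genes. That majority was gone once libraries were rescaled by median-ratio factors. The all-gene median of this difference was then -0.004, against 0.243 before. By limma adjusted p alone, 4161 genes were then higher in hmox1 and 4195 lower. A single gene exceeded 50% of its dark level in hmox1 without BV, Cre07.g336800, and a single one in 4A+ without BV, Cre10.g423200. The former rests on 1 library, with 15.36 and 0.62 RPKM against a dark mean of 6.13. The latter stood at 50.12%, just over the limit.

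**Figure D3:**
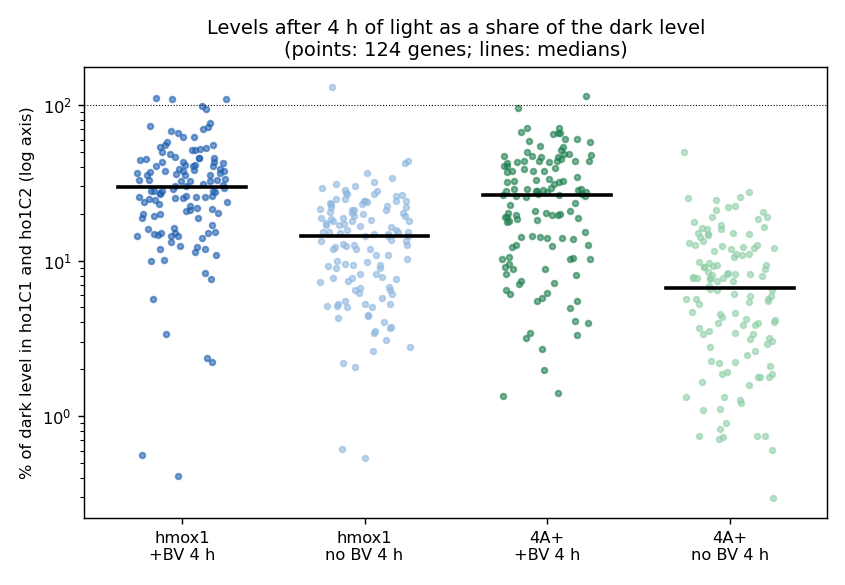
Level of each of the 124 genes (points) after 4 h of light in hmox1 and 4A+, with and without BV, as a percent of its mean dark level in ho1C1 and ho1C2 (log axis), with black lines for medians. The medians are 29.7% and 14.5% in hmox1 with and without BV, and 26.4% and 6.71% in 4A+ with and without BV. With median-ratio factors (not drawn) they are 35.19% and 15.79% in hmox1, and 35.17% and 9.26% in 4A+.

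The comparison of BV with no BV asked whether the level of these genes after 4 h of light differs when the bilin is added. In 4A+, 65 of the 124 rose with BV and 0 fell, where a call needs a limma adjusted p under 0.05 over the 13871 genes tested and a difference of at least 2-fold on the log2(RPKM + 1) scale. Of all genes tested 5.22% were called higher and 3.43% lower, against 52.4% of these genes called higher. In 4A+ without BV 66 of the 124 averaged 1 RPKM or more. Below that level a 2-fold fall cannot arise on this scale, so the 0 speaks for only part of the genes. By adjusted p alone 106 of the 124 were called higher and 0 lower, against 32.1% and 27.4% of all genes. At an unadjusted p under 0.05 in limma, 108 were higher and 0 lower, against 33.9% and 29.0% of all genes. The median log2 difference was 1.02 over the 124 genes and 0.03 over all genes tested. The median level was 3.93 RPKM with BV and 1.09 without it. All 124 passed the filter on low values through their dark libraries, and 110 would pass it in the 8 libraries of 4A+ and hmox1 alone. The count of 65 became 27 when 5 RPKM was added before taking logs, against 2.08% of all genes.

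The largest rise with BV in 4A+ was that of Cre07.g338450. It had 127 and 131 RPKM with BV and 4.87 and 5.09 without it, so the pairs lay far apart (log2 difference 4.445, SE 0.06, adjusted p = 2.8e-19). Cre08.g372200 had 70.4 and 80.2 RPKM with BV and 2.82 and 2.97 without it (4.29, SE 0.075, adjusted p = 3.41e-18). Cre01.g032650 had 407 and 416 RPKM with BV and 27.45 and 29.5 without it (3.81, SE 0.06, adjusted p = 2.31e-18). With BV this transcript stood at 48.5% of its dark level in the complemented lines. Cre13.g603500 had 34.8 and 43.5 RPKM with BV and 4.56 and 3.13 without it (3.06, SE 0.15, adjusted p = 9.38e-11). Each of the 10 members with the highest dark level was called higher, the smallest difference among them being that of Cre17.g702900. That gene had 330.4 and 339.8 RPKM with BV and 148 and 163 without it (1.105, SE 0.08, adjusted p = 1.1e-09).

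In hmox1, which is mutated in heme oxygenase, 44 of the 124 rose with BV and 0 fell. Over all genes tested 3.76% were called higher and 3.57% lower, against 35.5% of these genes called higher. Without BV 87 of the 124 averaged 1 RPKM or more in hmox1, and only those could fall 2-fold on the log2(RPKM + 1) scale. By adjusted p alone 99 were higher and 4 lower, against 20.5% and 37.7% of all genes, and at an unadjusted p under 0.05 in limma 100 were higher and 4 lower, against 22.0% and 40.3%. The 4 were g9426, Cre12.g546500, Cre12.g489300 and Cre16.g692200, none of which reached 2-fold on the log2(RPKM + 1) scale. On the RPKM scale Cre12.g546500 averaged 1.545 with BV and 4.27 without it (6.51 and 2.03 in its 2 libraries). The median log2 difference was 0.67 over the 124 genes and -0.11 over all genes tested, or 0.73 and -0.02 with median-ratio factors. The median level was 4.91 RPKM with BV and 2.47 without it. With 5 RPKM added the count became 18, against 1.62% of all genes. With limma array weights 85 were higher and 3 lower by adjusted p alone, against 2017 and 3804 of the 13871 genes tested.

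The leading rises in hmox1 were those of Cre02.g084450 and Cre02.g084400, which lie next to each other in the RefSeq gene order of assembly Chlamydomonas_reinhardtii_v5.5. Cre02.g084450 had 51.1 and 57.5 RPKM with BV and 3.37 and 3.38 without it (log2 difference 3.66, SE 0.09, adjusted p = 1.34e-15). Its level with BV in light was 109% of the dark level in the complemented lines. Cre02.g084400 had 42.8 and 49.3 RPKM with BV and 3.36 and 3.87 without it (3.35, SE 0.09, adjusted p = 1.47e-15), which put it at 99.0% of the dark level. Cre08.g372200 had 156 and 176 RPKM with BV and 21.0 and 18.9 without it (2.99, SE 0.075, adjusted p = 1.34e-15). For g9756 the values were 21.1 and 21.3 RPKM with BV and 3.46 and 3.45 without it (2.31, SE 0.08, adjusted p = 3.58e-14). Libraries with and without BV did not overlap in these 4 genes, which the rule for naming genes required.

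In the deposited values few genes stood at the dark level of the complemented lines. With BV, 3 genes in hmox1 and 1 in 4A+ were at or above that level, named here after their values were seen. In hmox1 these were Cre02.g084450, g8389 and Cre09.g391700. In 4A+ it was Cre12.g518800, with 4.36 and 4.51 RPKM with BV and 0.32 and 0.31 without it, against 3.39 to 4.66 in the 4 dark libraries. Above 50% of the dark level were 21 genes in hmox1 with BV and 15 in 4A+ with BV. These counts and names were not worked out again for rescaled libraries. Rescaling by median-ratio factors raised the median share of the dark level from 29.7 to 35.19% in hmox1 with BV. In 4A+ with BV it raised that share from 26.4 to 35.17%. Genes close to a limit, such as Cre02.g084400 at 99.05% in hmox1 with BV, may therefore change sides. As a summed level the 124 genes took 0.268 and 0.281% of the column total in hmox1 with BV, against 0.119 and 0.112% without it. In 4A+ they took 0.272 and 0.299% with BV, against 0.0661 and 0.0698% without it. The summed level was therefore higher with BV in every library, and below that of darkness in every library at 4 h.

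The BV comparisons in 4A+ and hmox1 have no library in common. Both called 32 genes higher, which is 72.7% of the 44 called in hmox1 and 49.2% of the 65 called in 4A+. Of all genes tested 2.1% were called higher in both, which is 55.7% of those called in hmox1 and 40.2% of those called in 4A+. The difference was positive in both strains for 108 of the 124. That joint count was not made over all 13871 genes tested. Of those, 7400 had a positive difference in 4A+ and 5291 in hmox1, so at most 5291 were positive in both. Across the 124 genes the correlation of the log2 differences was 0.58 (Pearson) and 0.54 (Spearman), against a Pearson value of 0.72 across all genes tested. Genes of 1 library share its depth and scaling and are not independent replicates.

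The response to BV was also set against the other strain directly. The difference of the BV response, hmox1 minus 4A+, was called for 23 of the 124 genes. It was lower for 19 and higher for 4, where 2.95% of all genes tested were called lower and 1.39% higher. By adjusted p alone 54 were lower and 22 higher, against 25.5% and 8.04% of all genes. Of the 33 genes called with BV in 4A+ but not in hmox1, 12 had a called difference, and of the 12 called in hmox1 but not in 4A+, 4 had one. The median difference was -0.27 over the 124 and -0.12 over all genes tested, or -0.26 and 0.01 with median-ratio factors. With 0.1 RPKM added 32 were lower and 8 higher, against 7.36% and 1.92% of all genes. With 5 RPKM added 7 were lower and 1 higher, against 0.952% and 0.62%. With limma array weights 43 were lower and 18 higher by adjusted p alone, against 2585 and 821 of the 13871 genes tested.

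Cre07.g338450 differed most in its response. Beside its values in 4A+ above, it had 66.5 and 68.5 RPKM with BV in hmox1 and 20.4 and 19.5 without it (log2 difference 1.71 in hmox1, difference between strains -2.73, SE 0.09, adjusted p = 2e-13). Both the lower level with BV and the higher level without it in hmox1 enter that difference. Cre11.g467350 had 13.4 and 14.99 RPKM with BV and 9.36 and 11.3 without it in hmox1, and 19.1 and 20.3 with BV and 3.02 and 2.49 without it in 4A+ (difference -2.04, SE 0.13, adjusted p = 1.1e-09). For Cre01.g032650 the levels in hmox1 were 223 and 208 RPKM with BV and 55.5 and 56.8 without it (difference -1.89, SE 0.09, adjusted p = 2.05e-11). Cre04.g212450 went the other way. It had 4.47 and 3.75 RPKM with BV and 0.39 and 0.28 without it in hmox1, and stayed at 0.24 and 0.33 with BV and 0.09 and 0.14 without it in 4A+ (difference 1.73, SE 0.15, adjusted p = 7.27e-08). Like it, g786 had 5.15 and 6.84 RPKM with BV and 1.09 and 1.28 without it in hmox1, and at most 0.62 in any 4A+ library (1.18, SE 0.16, adjusted p = 1.17e-05). That difference was 0.58 with adjusted p = 0.11 when 0.1 RPKM was added.

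**Figure D4:**
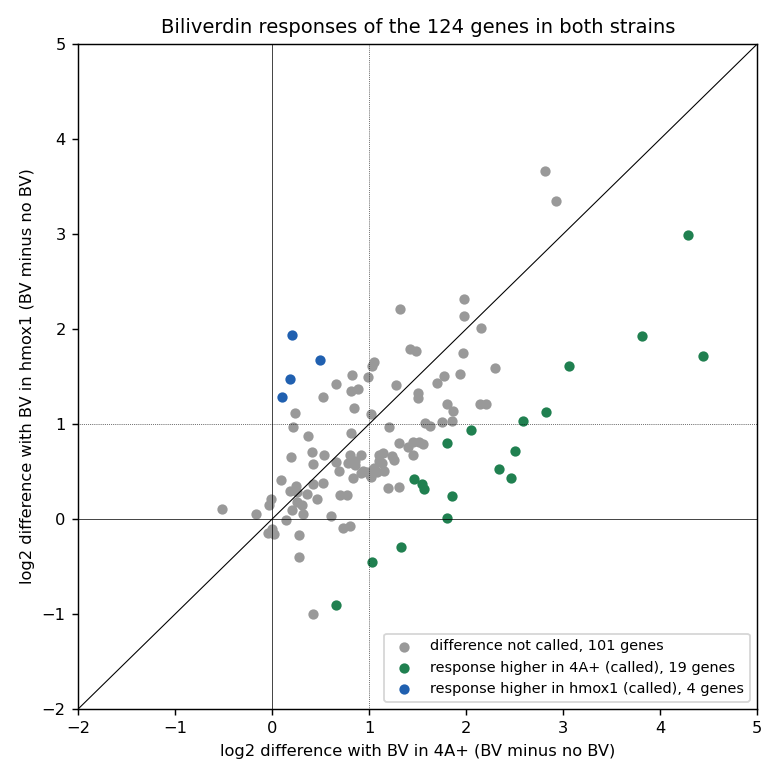
Log2 difference with BV (BV minus no BV, on the log2 of RPKM plus 1 scale) of the 124 genes in 4A+ (x axis) and hmox1 (y axis), with the solid diagonal marking equal responses and dotted lines marking 2-fold. Most points lie above 0 on both axes, 19 genes with a called difference lie below the diagonal and 4 above it.

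Without BV, hmox1 had higher levels than 4A+ for part of these genes. At 4 h 23 of the 124 were called higher in hmox1 and 2 lower, where 7.05% of all genes tested were called higher and 0.8% lower. By adjusted p alone 87 were higher and 5 lower, against 53.5% and 11.8% of all genes. With limma array weights, which let libraries differ in spread, 71 were higher and 5 lower by adjusted p alone. Of the 13871 genes tested 5808 and 1131 were then. The 2-fold calls stayed at 23 and 2. The median log2 difference was 0.48 over the 124 and 0.24 over all genes tested. Median-ratio factors moved the median of all genes by -0.25, and then 13 of the 124 were called higher and 4 lower, with a median of 0.30 against 0.00 for all genes and 3.8% of all genes called higher and 1.74% lower. With 0.1 RPKM added 56 were higher, against 16.4% of all genes, and with 5 RPKM added 5 were, against 2.08%. This comparison shares the libraries without BV with the BV comparisons above, so a low level in 4A+ enters both.

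Cre08.g372200 led this comparison, with 21.0 and 18.9 RPKM in hmox1 and 2.82 and 2.97 in 4A+ (log2 difference 2.43, SE 0.075, adjusted p = 1.92e-14). For g9756 the levels were 3.46 and 3.45 RPKM in hmox1 and 0.12 and 0.07 in 4A+ (2.025, SE 0.08, adjusted p = 2.91e-13). Cre13.g603550 had 10.6 and 5.32 RPKM in hmox1 and 0.73 and 0.72 in 4A+ (2.31, SE 0.37, adjusted p = 0.000196), with a wide spread between the hmox1 libraries. Cre07.g336800 had 15.4 and 0.62 RPKM in hmox1 and 0.04 and 0.11 in 4A+ (2.26, SE 0.74, adjusted p = 0.0208). Its value rests on 1 library, since the difference was 0.59 without hmox1 replicate 1, and it was 2.26 with adjusted p = 0.159 when the 8 libraries of 4A+ and hmox1 were fitted alone. The adjusted p was 0.0761 and 0.0644 without either 4A+ library. The 2 genes called lower were Cre06.g263200 and Cre10.g423200. Cre06.g263200 had 0.37 and 1.06 RPKM in hmox1 and 2.82 and 3.43 in 4A+ (-1.29, SE 0.29, adjusted p = 0.00211), or -0.998 without hmox1 replicate 1, just under 2-fold on that scale. Cre10.g423200 had 1.61 and 1.41 RPKM in hmox1 and 4.42 and 4.24 in 4A+ (-1.09, SE 0.11, adjusted p = 9.91e-08).

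With BV in both strains, 17 of the 124 were called higher and 4 lower in hmox1, where 3.89% of all genes tested were called higher and 0.995% lower. By adjusted p alone 50 were higher and 31 lower, against 34.9% and 15% of all genes. The median log2 difference was 0.155 over the 124 and 0.10 over all genes tested. Median-ratio factors moved the median of all genes by -0.13 and gave 15 higher and 7 lower, against 2.95% and 1.47% of all genes, with medians of 0.02 and -0.03. Of the genes called higher, 10 were also called higher without BV. For g9756 the levels were 21.1 and 21.3 RPKM in hmox1 and 3.30 and 3.31 in 4A+ (2.36, SE 0.08, adjusted p = 2.75e-14). Cre02.g084450 stood at 51.1 and 57.5 RPKM in hmox1 and 12.7 and 15.2 in 4A+ (1.89, SE 0.09, adjusted p = 8.14e-12). The 4 genes called lower in hmox1 were Cre12.g489300, Cre16.g692200, Cre06.g307750 and Cre10.g423200. Cre12.g489300 had 2.11 and 2.26 RPKM in hmox1 with BV and 9.90 and 10.5 in 4A+ with BV (-1.81, SE 0.09, adjusted p = 2.12e-11). Of these 4 genes, all but Cre10.g423200 rose with BV in 4A+ by the same test, Cre16.g692200 with 1.03, which was 0.945 without 4A+ with BV replicate 2 and 0.957 without 4A+ without BV replicate 1. Cre06.g307750, for example, had 8.88 and 8.26 RPKM with BV and 0.50 and 0.89 without it in 4A+ (2.51, SE 0.13, adjusted p = 1.48e-11). In hmox1 it had 2.14 and 3.07 with BV and 1.42 and 0.96 without it (0.715, SE 0.13, adjusted p = 0.000141), under 2-fold on the log2(RPKM + 1) scale.

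Of the 124 IDs, 95 matched the RefSeq gene table, and 3 pairs of them were adjacent in its gene order. The labels do not say how reads of overlapping or near-identical neighbours were counted, so the values of such a pair may not be separate. The pair Cre02.g084400 and Cre02.g084450 moved alike. In 4A+ with BV these genes had 12.5 and 14.3 RPKM, and 12.7 and 15.2, against 0.84 and 0.95, and 1.17 and 1.07, without BV (log2 differences 2.92 and 2.81). The pair Cre06.g296700 and Cre06.g296750 differed in level but had like directions. Cre06.g296700 had 34.0 and 44.5 RPKM with BV and 8.04 and 8.09 without it in hmox1 (2.14, SE 0.22, adjusted p = 3.21e-06). Cre06.g296750 had 4.62 and 5.09 with BV and 1.21 and 0.94 without it in hmox1 (1.498, SE 0.10, adjusted p = 3.39e-10).

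The third adjacent pair was called alike in 4A+ but not in hmox1, and its genes were not tested against each other. Cre13.g603500 rose with BV in 4A+ and in hmox1, where it had 33.7 and 35.8 RPKM with BV and 11.5 and 9.87 without it (1.61, SE 0.15, adjusted p = 1.99e-07). Its neighbour Cre13.g603550 had 6.94 and 13.7 RPKM with BV and 10.6 and 5.32 without it in hmox1 (0.34, SE 0.37, adjusted p = 0.457). The libraries of that gene overlapped. In 4A+ Cre13.g603550 had 2.05 and 4.97 with BV and 0.73 and 0.72 without it (1.31, SE 0.37, adjusted p = 0.00929), a call lost without 4A+ with BV replicate 2 (0.82, adjusted p = 0.0976) and when the 8 libraries of 4A+ and hmox1 were fitted alone (1.31, adjusted p = 0.0799).

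For 47 of the 124 genes BV gave no call in either strain. Many of them were hardly detected after 4 h of light, with a median of 0.61 RPKM in 4A+ without BV, and changes at such levels are small on the log2(RPKM + 1) scale. The 3 with the highest dark level, picked after their values were seen, were g2978, g9426 and Cre16.g661200. Of these g2978 had dark means of 118 and 113 RPKM in ho1C1 and ho1C2, and group means of 3.925 and 3.03 in hmox1 with and without BV, and 2.28 and 1.905 in 4A+ with and without BV. For g9426 the group means were 17.3 and 23.1 RPKM in hmox1 with and without BV, and 30.6 and 25.1 in 4A+ with and without BV, all well above 1 RPKM. Cre16.g661200 had dark means of 91.3 and 90.9 RPKM and stayed between 0.375 and 1.225 in the 4 group means of hmox1 and 4A+. Over the 124 genes, 12 stayed under a mean of 1 RPKM in all 4 of these groups.

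Genes chosen at a single exposure by the same threshold were read alongside. A set of 139 genes was low at 4 h in both lines but not at 0.5 h in both, and a set of 455 was low at 0.5 h but not at 4 h in both. With BV in 4A+ 68 of the 139 rose and 2 fell, and 77 of the 455 rose and 3 fell. In hmox1 40 of the 139 rose and 0 fell, and 40 of the 455 rose and 4 fell. The share called higher in 4A+ was thus 52.4% in the 124 genes, 48.9% in the 139 and 16.9% in the 455. The sets also differed in level, with medians in 4A+ without BV of 1.09, 1.205 and 3.295 RPKM, and no test of the difference between the sets was made. Within the 124, the 43 genes that went on down between 0.5 h and 4 h had 21 (48.8%) called higher with BV in hmox1 and 24 (55.8%) in 4A+. The 71 that came partly back had 18 (25.4%) in hmox1 and 35 (49.3%) in 4A+. Over all genes tested 3.76% and 5.22% were called higher. The median dark level was 19.2 RPKM in the 43 and 12.8 in the 71, and the difference between them was not tested.

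**Figure D5:**
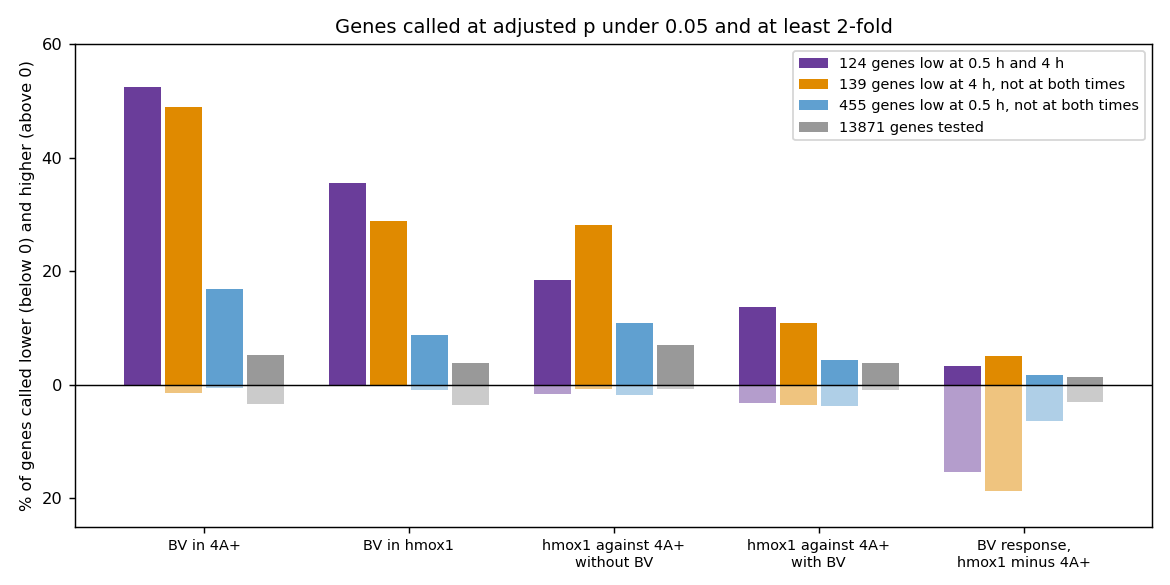
Percent of genes called at an adjusted p under 0.05 and at least 2-fold, higher above 0 and lower below 0, in each of the 5 comparisons, for the 124 genes, the 139 and 455 genes low at a single exposure and the 13871 genes tested. The 124 genes reach 35.5% higher with BV in hmox1, against 3.76% of all genes tested, and 52.4% in 4A+, against 5.22%.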

How the data were processed

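RNA-seq libraries were deposited as 1 table of 17737 IDs by 20 libraries. The unit, RPKM, was inferred from the deposited values, since the labels and header do not name it. The tools listed are HTSeq and STAR 2.3.0, per the submitters' processing notes. For build, annotation and strand setting, nothing was given in the sources used here. Light times follow the labels of single samples, as the treatment protocol names only the short exposure. Relative depth came from 417 low values of 36 IDs, of which 100% lay within 0.005 plus 3% of a whole multiple of a step, against 22.4% with factors shuffled among libraries.

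A linear model was fitted to log2(RPKM + 1) with limma 3.58.1 (R 4.3.3), a scale that understates changes of weak genes. The fit held all 20 libraries with 1 mean per group, 10 residual degrees of freedom, a variance trend and robust moderation. An ID entered when 2 or more libraries reached 1 RPKM, which left 13871, and the Benjamini-Hochberg method was applied separately in 5 comparisons. The fit was checked on simulated data. Named genes follow a written rule, the highest dark levels, the largest called changes per comparison, the threshold's neighbours and adjacent genes. Among comparisons of 2 groups, the largest changes were taken only where libraries did not overlap and the higher group averaged 1 RPKM or more. Members, lists and tests were chosen with earlier results of these data known. The RefSeq gene table of Chlamydomonas_reinhardtii_v5.5 matched 11713 IDs (66.0%) and gave no names, so the lists planned by product words and the promoter motifs were not run. Alternatives changed the pseudocount, filter, scaling, moderation, weights, fitted libraries, replicate block and each library in turn.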

Additional observations from a re-analysis of the deposited data

Results flagged for a closer look

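The response to BV differed between the strains for 11 genes named for dark level, size of change, nearness to the threshold or adjacency. The limits were an adjusted p under 0.05 and at least 2-fold in a direct test of that difference (limma, hmox1 minus 4A+, log2 scale). The response was smaller in hmox1 for 9 of the 11. These were Cre07.g338450 (-2.734), Cre11.g467350 (-2.038), Cre01.g032650 (-1.888), Cre06.g307750 (-1.791), Cre06.g263300 (-1.699), Cre12.g489300 (-1.623), Cre16.g692200 (-1.486), Cre13.g603500 (-1.445) and Cre08.g372200 (-1.298). It was larger in hmox1 for g786 (1.177) and Cre04.g212450 (1.73). With 5 RPKM added 7 of the 11 came under 2-fold on the log2 scale, Cre08.g372200 (-0.57), Cre16.g692200 (-0.70), Cre06.g307750 (-0.958), Cre13.g603500 (-0.977), Cre12.g489300 (-0.983), g786 (0.703) and Cre04.g212450 (0.724). With 0.1 RPKM added g786 had 0.583 (limma adjusted p = 0.11). Over all genes tested 2.95% were called lower and 1.39% higher in this test. Cre12.g518800 (-1.114) and Cre12.g546500 (-1.562), named above for other reasons, were also called lower in it and are not among the 11.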

How the results depend on the processing

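The counts moved with the added constant, the scaling and, for the selection, the threshold. Brackets give the share of all genes tested that was called in the same way. With 5 RPKM added, 18 genes (1.62%) were higher with BV in hmox1 and 27 (2.08%) in 4A+. Without BV 5 (2.08%) were higher and 0 (0.353%) lower in hmox1 than in 4A+, and with BV 6 (1.26%) and 1 (0.36%). The difference of the response was then higher for 1 (0.62%) and lower for 7 (0.952%). With 0.1 RPKM added, 92 genes (10.6%) were higher with BV in 4A+ and 64 (5.7%) in hmox1, where 1 (5.93%) was lower. Then 56 (16.4%) were higher in hmox1 than in 4A+ without BV and 7 (1.9%) lower with BV. The difference was then higher for 8 (1.92%) and lower for 32 (7.36%). Median-ratio factors gave 13 (3.8%) higher and 4 (1.74%) lower without BV, and 7 (1.47%) lower with BV. The selection itself gave 372 genes with 0.1 RPKM added, 44 with 5, 58 at a threshold of -2, 421 at -1 and 79 with median-ratio factors. The cause of these shifts was not tested. Leaving out each library in turn gave 58 to 69 higher and 0 to 1 lower with BV in 4A+, and 39 to 48 higher and 0 to 2 lower with BV in hmox1. It gave 23 to 26 higher and 2 to 3 lower in hmox1 without BV, and 14 to 21 higher and 4 to 6 lower with BV. The difference was higher for 3 to 5 and lower for 16 to 22, and the selection held 121 to 129 genes. Where 1 library is left in a group, it is assumed to vary like the others. Nothing in the labels ties equal replicate numbers together, and same-numbered deviations correlated at -0.098 to 0.33 over all 45 pairs of groups, 16 of them over 0.1, and at -0.039 to 0.238 over the 6 pairs within hmox1 and 4A+. The numbers were therefore not taken as pairing. With the replicate block the counts higher and lower were 65 and 0, 44 and 0, 23 and 2, 17 and 4, and 4 and 19, as without it. Of 72 calls of named genes, 36 held in all settings run, 32 were lost with 5 RPKM added and 0 reversed.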
